A study of Mus musculus with 46 samples.

Results

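The enzymes Hmgcs1, Idi1, Fdps, Fdft1, Sqle, Lss and Cyp51 of cholesterol synthesis were followed by ribosome profiling and RNA sequencing in EPP2 mouse pancreatic cancer cells. They were chosen by gene symbol as enzymes of the route, with earlier results of these data known, and 7 of 7 were found among 10453 gene symbols listed on a single entry of the count tables. Ribosome profiling counts the short messenger RNA fragments protected by translating ribosomes (footprints), and RNA sequencing of the same cultures counts the transcripts.

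The cells were a clone grown from a single EPP2 cell that carries a doxycycline-inducible Cas9. Control cells, with genotype labelled WT, and Ctu1KO cells (Ctu1 iKO, for inducible knockout, in the plots), in which Cas9 cuts the gene of the tRNA thiolase Ctu1, were each treated with 300 nM torin 1 or with the solvent DMSO for 2 h. Doxycycline at 300 ng/ml had been given 4 days earlier, and the labels do not say whether control cells received it or which guide RNA they carried. For its knockout experiments in general the study names as controls guides against non-coding chromosome regions or cells without doxycycline. Each assay had 6 control libraries with DMSO, 6 control libraries with torin 1, 5 Ctu1KO libraries with DMSO and 6 Ctu1KO libraries with torin 1, from 23 cultures. The comparisons ask how the loss of a wobble uridine modification of tRNA and the inhibition of mTOR, alone and together, change what the cell translates.

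Cholesterol is built from acetyl-CoA by way of mevalonate, farnesyl diphosphate, squalene and lanosterol. Most genes of the route are activated together by the transcription factor SREBP-2 when sterols in the endoplasmic reticulum run low, and mTORC1 is known to promote SREBP activity. Ctu1 places sulfur on the wobble uridine of the tRNAs that read lysine, glutamine and glutamate codons ending in A. Torin 1 blocks the kinase mTOR in both of its complexes.

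The members act in order. Hmgcs1 makes HMG-CoA at the head of the mevalonate route, Idi1 interconverts the basic isoprenoid building blocks, and Fdps joins them into farnesyl diphosphate. Fdft1 condenses farnesyl diphosphate into squalene, the first step committed to sterols. Sqle oxidises squalene, Lss closes the rings to give lanosterol, and Cyp51 removes a methyl group from lanosterol.

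In the GENCODE M21 annotation of GRCm38, Hmgcs1 lies at chr13:119690379-119708260 and Idi1 at chr13:8885501-8892451, both on the plus strand. Fdps lies at chr3:89093588-89101959 and Fdft1 at chr14:63145150-63179578, both on the minus strand. Sqle lies at chr15:59315077-59331192 and Lss at chr10:76531588-76557138 on the plus strand, and Cyp51 at chr5:4081145-4104746 on the minus strand. Fdft1 overlaps Ctsb and Cyp51 overlaps Akap9, both listed genes on the opposite strand. Fdps overlaps a second listed gene, Gm43738, on its own strand, and Idi1 has a near copy, Idi2, beside it. Values of these members are uncertain to the extent that the authors' counting shared reads between such genes.

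RefSeq promoters of GRCm38.p6, running from 250 bases before to 50 bases after the start of a gene, were at hand for Hmgcs1, Idi1, Lss and Cyp51. On both strands they were searched for TCACNCCAC, the core of a sterol regulatory element to which SREBP binds, for CCAAT, and for GGGCGG, a GC box. TCACNCCAC stood in the promoter of Hmgcs1, and 1.24% of all 32851 promoters hold it. CCAAT stood in all 4 promoters (37.4% of all and 38.6% of 10695 promoters of listed genes), and GGGCGG likewise in all 4 (35.7% of all and 64.4% of those of listed genes). The 150 bases directly upstream of 3 of the starts are shown, counted from the outermost annotated start of each gene. They hold the matches that differ between the members. Hmgcs1 has TCACNCCAC, while the windows of Lss, Cyp51 and Idi1 (not shown) lack these exact letters. Other forms of the sterol regulatory element were not searched for, so whether these promoters lack one was not tested. The capitals mark the motif matches in the direction of the gene, so that ATTGG and CCGCCC are CCAAT and GGGCGG on the other strand.
Hmgcs1, chr13:119690201-119690350, plus strand: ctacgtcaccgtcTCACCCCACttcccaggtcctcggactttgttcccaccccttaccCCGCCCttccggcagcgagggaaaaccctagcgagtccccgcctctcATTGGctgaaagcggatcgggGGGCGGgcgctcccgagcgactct
Lss, chr10:76531438-76531587, plus strand: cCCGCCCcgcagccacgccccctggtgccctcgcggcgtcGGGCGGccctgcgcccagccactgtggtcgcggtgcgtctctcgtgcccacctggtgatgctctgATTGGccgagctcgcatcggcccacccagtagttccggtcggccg
Cyp51, chr5:4104747-4104896, minus strand: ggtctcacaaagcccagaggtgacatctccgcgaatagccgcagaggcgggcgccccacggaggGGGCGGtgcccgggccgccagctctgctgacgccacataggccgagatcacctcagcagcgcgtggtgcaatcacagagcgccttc

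The members fell into 2 kinds by the codons that the Ctu1-modified tRNAs read. AAA, CAA and GAA together made up 8.83% of the codons of Idi1, 7.95% of Cyp51, 7.34% of Sqle and 7.12% of Hmgcs1. They made up 5.10% of the codons of Fdps, 4.81% of Fdft1 and 3.0% of Lss, and the median over 10159 listed genes was 6.06%. Among lysine, glutamine and glutamate codons, those ending in A were 47.2% to 49.3% in Idi1, Cyp51, Sqle and Hmgcs1, but 22.2% to 27% in Fdps, Fdft1 and Lss, against a median of 35.0%. Idi1, Cyp51, Sqle and Hmgcs1 therefore lie above the typical gene and Fdps, Fdft1 and Lss below it.

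Footprint libraries held 4602092 to 52907878 counts and RNA libraries 129881946 to 325494304, so that the spread between libraries rather than counting set the precision. On a torin 1 axis built from replicates 1 and 2, 6 RNA libraries lay on the side opposite to their label, namely Ctu1KO with DMSO 4 and 5, control with torin 1 5 and 6, and Ctu1KO with torin 1 5 and 6. Control footprint libraries with torin 1, replicates 3 to 6, lay just on the DMSO side of its middle (-0.0868 to -0.00732), apart from control libraries with DMSO (-0.497 to -0.427), and were kept. Transcript results use replicates 1 to 3, and the values with all replicates are given where they differ. The footprint library of Ctu1KO with torin 1, replicate 1, had the fewest counts (4602092). It lay farthest out on the axis (1.11), which it helps to define. For the members' footprints, calls and differences are also given without it. Efficiency values and genes of the other lists are given with it alone. Ctu1 itself was at 2.67 ± 0.742 footprint CPM (counts scaled to a common library size; SD, n = 6) in control and 1.82 ± 0.421 (n = 5) in Ctu1KO cells with DMSO, and at 4.52 ± 0.0948 and 4.59 ± 0.312 transcript CPM (n = 3 each). The torin 1 tables do not list Ctu1. Per the study's methods, editing was checked by PCR across the cut sites of a pair of guides, and a count over the whole gene does not show whether the segment between them was lost.

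Of 8 epithelial markers, 4 were listed in both kinds of table (Krt8, Krt18, Krt19 and Sox9), Epcam was listed with DMSO alone, and Krt7, Cdh1 and Cldn4 were not listed. Of 5 mesenchymal markers, Vim, Col1a1, Pdgfra and Pdgfrb were listed and Col1a2 was not. No acinar or endothelial marker was listed, and of the immune markers Cd68 was, with DMSO alone. With Ctu1 loss Cd68 footprints were at 4.18 ± 1.58 CPM (SD, n = 5) against 1.88 ± 0.306 in control (n = 6), and Epcam footprints at 0.983 ± 0.733 against 2.39 ± 0.557. The summed levels moved with the groups, and the mesenchymal sum is mostly Vim. The summed transcript level of the 4 mesenchymal markers ran from 2487 to 2720 CPM in control with DMSO, 3210 to 3601 in control with torin 1, 3131 to 3443 in Ctu1KO with DMSO and 5107 to 5802 in Ctu1KO with torin 1. Their summed footprint level ran from 3604 to 4885, 2694 to 3465, 3554 to 5253 and 1943 to 3231 CPM in the same order, while Pdgfra had a higher mean with torin 1 in both assays, for example 26.8 ± 6.71 against 14.5 ± 2.78 footprint CPM in control cells (SD, n = 6 each). The 4 epithelial markers summed to 286 to 307, 380 to 437, 319 to 398 and 550 to 619 transcript CPM, and to 331 to 403, 308 to 410, 365 to 501 and 395 to 499 footprint CPM. The part of these shifts in the results for the members was not tested.

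Per length, the members spanned a wide range of footprint levels. In control cells with DMSO, Lss was the lowest at 14.8 ± 2.02 footprint CPM per kb of coding sequence (SD, n = 6), followed by Sqle at 57.5 ± 3.87 and Cyp51 at 78.2 ± 7.84. Hmgcs1 at 171 ± 20.7 and Fdft1 at 172 ± 20.1 were indistinguishable, and Idi1 at 340 ± 65.5 and Fdps at 423 ± 22.7 were the highest. With Ctu1 loss the order was kept but for Fdft1 at 115 ± 19.3 and Hmgcs1 at 133 ± 13.4 (n = 5), which again overlapped within their SD.

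Transcript levels per kb of transcript followed a partly different order. In control cells with DMSO, Fdps was the highest at 211 ± 4.23 transcript CPM per kb (SD, n = 3) and Hmgcs1 followed at 68.8 ± 3.32. Fdft1 at 45.7 ± 0.83 and Sqle at 43.9 ± 6.61 did not differ beyond their spread. Cyp51 was at 23.5 ± 2.91, Idi1 at 14.2 ± 2.92 and Lss at 10.2 ± 0.501. Idi1 stood apart in having 6.17 ± 1.39 footprint CPM per transcript CPM, where the means of the other members lay between 0.626 (Lss) and 1.52 (Fdps).

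**Figure D1:**
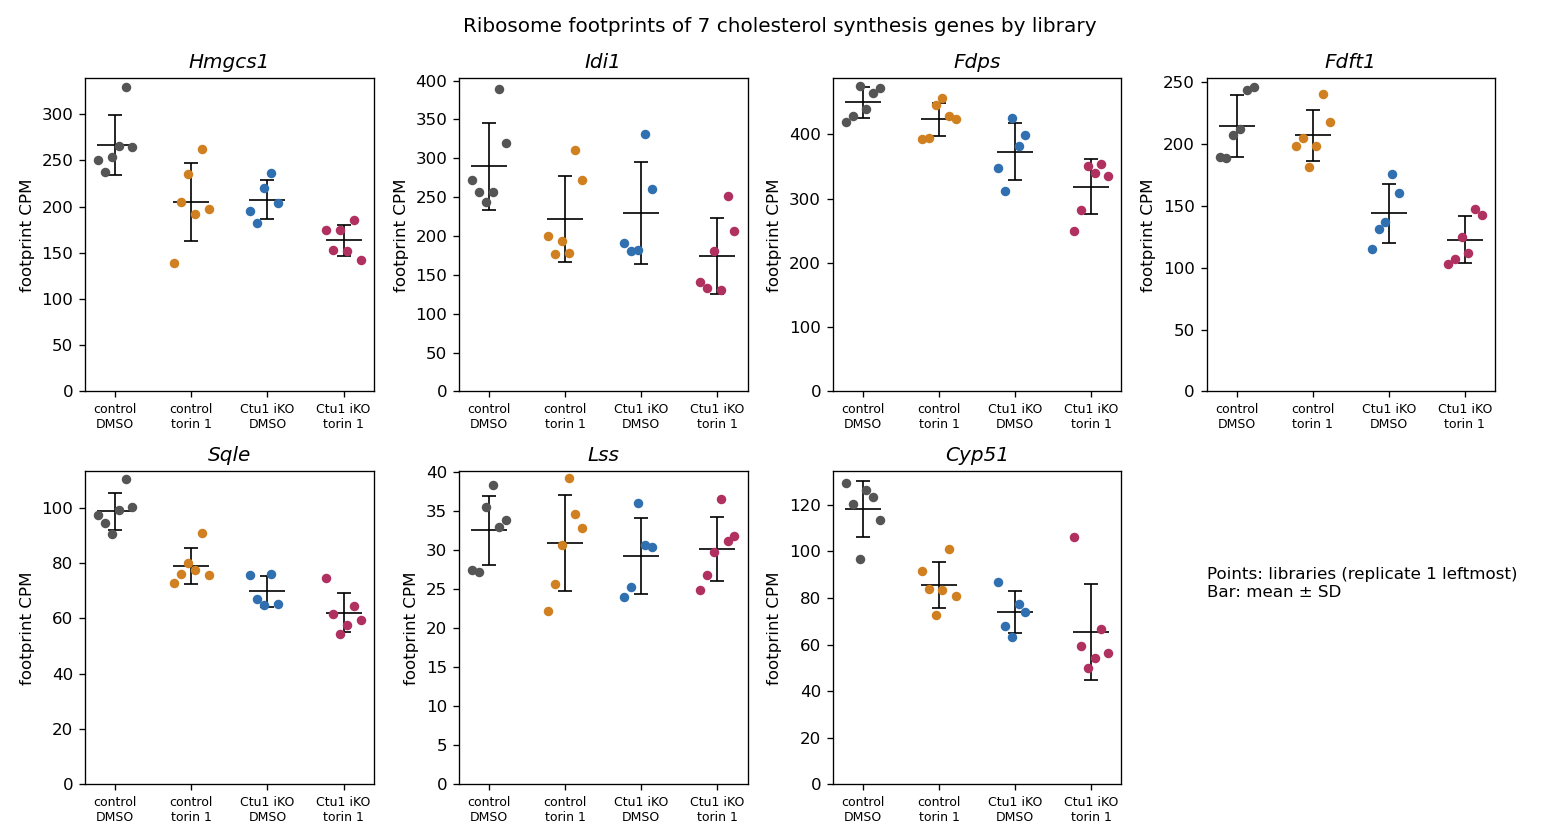
Footprint CPM of each member in every library (points) by group, with the group mean and SD as bars; the y axis is CPM scaled by TMM factors. The Ctu1KO libraries of Fdft1 with DMSO (115 to 176) lie below all control libraries with DMSO (189 to 246), while those of Lss (24.0 to 36.0) overlap the control libraries (27.2 to 38.3).

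Loss of Ctu1 in cells with DMSO lowered the footprints of 3 of 7 members. Cyp51 fell by 37.4%, Fdft1 by 32.8% and Sqle by 29.2%. All 7 members lay below the control mean, and 3 of 7 were called lower (adjusted p below 0.05 in edgeR's quasi-likelihood test over all genes), against 1.04% of all 10397 genes tested. The median log2 change was -0.36 over the members and -0.00 over all genes. In bulk samples, fewer cells of a type and less RNA per cell cannot be told apart.

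Cyp51, the lanosterol demethylase, was at 129, 120.4, 96.7, 126, 123 and 113 footprint CPM in the 6 control libraries and at 86.7, 68.1, 63.3, 77.3 and 74.0 in the 5 Ctu1KO libraries. Every Ctu1KO library lay below every control library. The log2 change was -0.67 ± 0.11 (SE; adjusted p = 0.00504).

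Fdft1, the squalene synthase, was at 190, 189, 207, 213, 244 and 246 CPM in control and at 115, 131, 137, 176 and 161 in Ctu1KO libraries. These groups were apart as well. The log2 change was -0.57 ± 0.12 (adjusted p = 0.0222).

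Sqle, the squalene epoxidase, was at 97.5, 94.7, 90.7, 99.2, 110 and 100.4 CPM in control and at 75.7, 67.0, 65.0, 76.0 and 65.3 in Ctu1KO libraries. Again no Ctu1KO library reached the control range. The log2 change was -0.50 ± 0.09 (adjusted p = 0.0103).

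Hmgcs1, Fdps, Idi1 and Lss did not pass the threshold. Hmgcs1 was at 183 to 236 CPM in Ctu1KO and 238 to 329 in control libraries, with a log2 change of -0.36 ± 0.10 (adjusted p = 0.0735) and no overlap between the groups. Fdps was at -0.27 ± 0.09 on the log2 scale (adjusted p = 0.125) and Idi1 at -0.33 ± 0.17 (0.338), and their groups overlapped. For Lss the log2 change was -0.15 ± 0.13 (adjusted p = 0.605), with 2 of 5 Ctu1KO libraries below the control range. With replicates 1 to 3 alone none of the 3 calls was made.

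The transcripts of the members were lower in Ctu1KO cells with DMSO as well. Hmgcs1 and Fdft1 were called lower, 2 of 7 members against 1.8% of 10119 genes, and all 7 were below the control mean with a median log2 change of -0.37 (-0.00 over all genes). With the replicate number as a block, which pairs libraries of the same number, 7 of 7 members were called lower, against 13.6% of all genes.

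Hmgcs1 transcripts were at 242, 226 and 248 CPM in control and at 178, 176 and 200.3 in Ctu1KO libraries. Fdft1 transcripts were at 171, 165 and 169.6 CPM in control and at 132, 126 and 136 in Ctu1KO libraries. In both genes the groups were apart. The log2 changes were -0.37 ± 0.08 for Hmgcs1 (adjusted p = 0.0431) and -0.37 ± 0.06 for Fdft1 (adjusted p = 0.025).

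The other members gained their call from the block. Their unblocked log2 changes were -0.28 ± 0.07 for Fdps (adjusted p = 0.0698, with the block 0.00856), -0.39 ± 0.14 for Sqle (0.131, with the block 0.00498) and -0.30 ± 0.12 for Cyp51 (0.165, with the block 0.00785). For Idi1 the log2 change was -0.46 ± 0.26 (adjusted p = 0.336, with the block 0.00503) and for Lss -0.20 ± 0.11 (0.3, with the block 0.0406). Libraries of the same number thus deviated together, most visibly in Idi1, whose control libraries at 42.0, 34.7 and 52.3 CPM were each above the Ctu1KO library of the same number at 28.5, 21.3 and 44.4. With all replicates as labelled, 7 of 7 were called, a count given without its share of all genes. That fit takes in Ctu1KO libraries 4 and 5 with DMSO, which lay on the torin 1 side of the axis (0.367 and 0.297). When control library 1, 2 or 3 or Ctu1KO library 1 or 2 was left out, neither unblocked call was made.

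**Figure D2:**
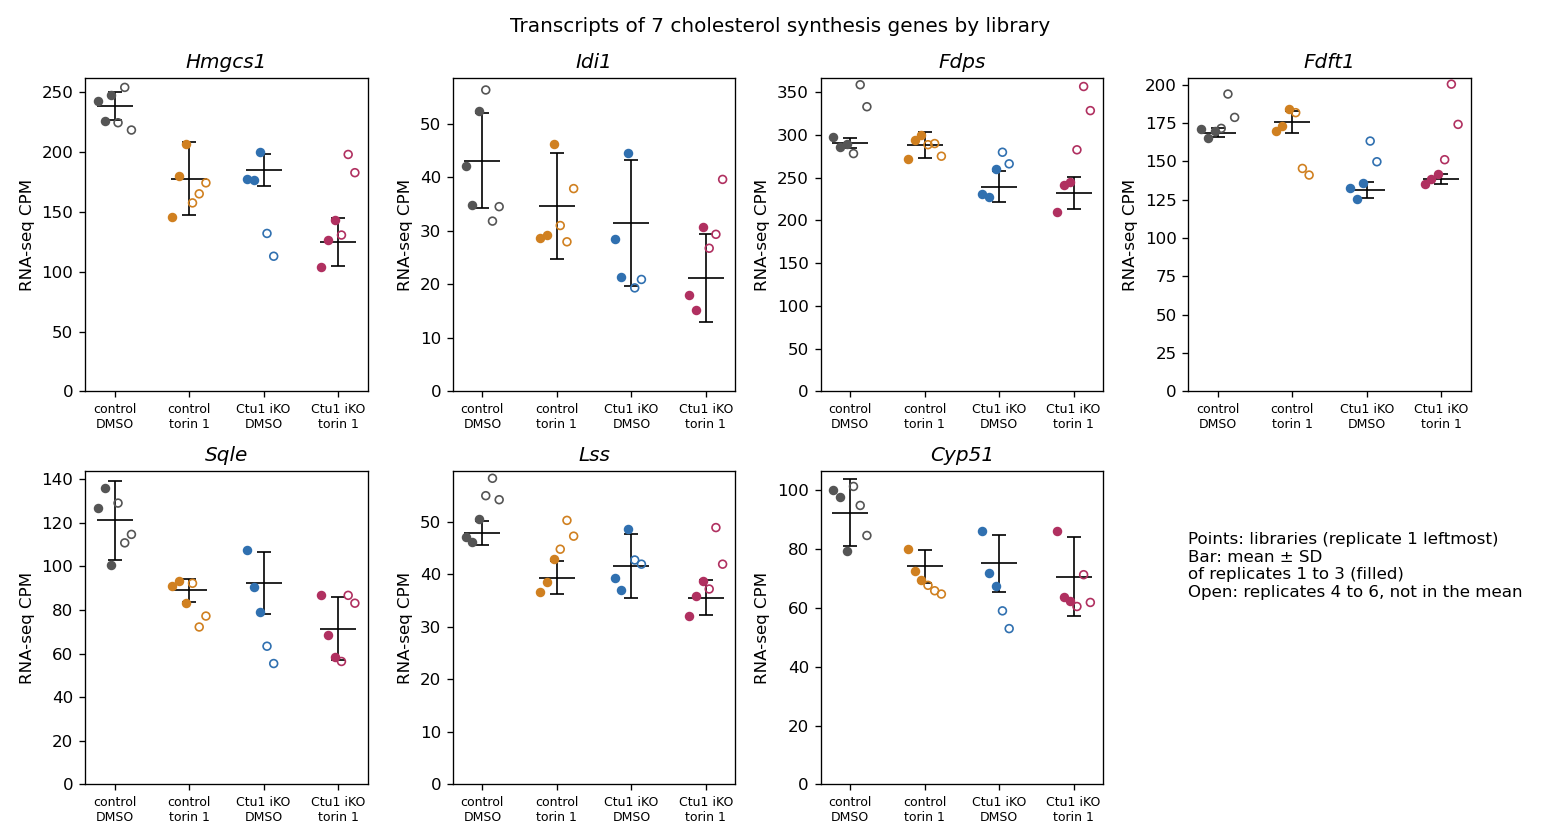
Transcript CPM of each member in every library by group, with filled points for replicates 1 to 3, which enter the mean and SD drawn as bars, and open points for replicates 4 to 6, which do not. Filled points of Hmgcs1 lie at 226 to 248 in control and 176 to 200.3 in Ctu1KO libraries with DMSO.

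With torin 1 present, loss of Ctu1 lowered the footprints of Fdft1 by 40.6% and of Fdps by 24.7%. These were 2 of 7 members against 2.6% of 9913 genes, all 7 members were below the control mean, and the median log2 change was -0.35 (0.01 over all genes). With the replicate block 5 of 7 were called lower, against 7.35% of all genes.

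Fdft1 was at 199, 205, 182, 198, 241 and 218 footprint CPM in control and at 103, 107, 125, 112, 147 and 143 in Ctu1KO libraries with torin 1. Fdps was at 392, 395, 446, 456, 428 and 423 CPM in control and at 250, 283, 351, 340, 354 and 335 in Ctu1KO libraries. All Ctu1KO libraries lay below all control libraries in both genes. The log2 changes were -0.75 ± 0.11 for Fdft1 (adjusted p = 0.0011) and -0.41 ± 0.10 for Fdps (adjusted p = 0.03).

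For Sqle the log2 change was -0.35 ± 0.10 (adjusted p = 0.0585, with the block 0.0213), for Cyp51 -0.39 ± 0.16 (0.207, with the block 0.0248) and for Idi1 -0.35 ± 0.19 (0.352, with the block 0.00641). For Hmgcs1 it was -0.33 ± 0.13 (0.197, with the block 0.0705). Lss did not move beyond its error, at -0.03 ± 0.15 (adjusted p = 0.94), and its sign turned when library totals replaced TMM. Without Ctu1KO replicate 1, the library that stands apart, 4 members were called lower (share of all genes not given). Cyp51 then had a log2 change of -0.58 ± 0.11 (adjusted p = 0.0071). Without control replicate 3, 4, 5 or 6 or Ctu1KO replicate 2, Fdft1 was the single call.

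In the transcripts, Ctu1KO cells with torin 1 again had lower means than control cells with torin 1 for all 7 members, with a median log2 change of -0.31 (0.01 over all genes). None of the 7 was called by edgeR, against 0.352% of 9650 genes called lower. An unadjusted p below 0.05 was reached by 3 of 7 members and by 1932 of the 9650 genes. DESeq2 called 3 (share of all genes not given). With the replicate block 5 of 7 were called lower, against 15.5% of all genes.

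Hmgcs1 transcripts were at 146, 180 and 207 CPM in control and 104, 126 and 144 in Ctu1KO libraries with torin 1, and Ctu1KO libraries lay below all control libraries. The log2 change was -0.50 ± 0.16 (adjusted p = 0.156, with the block 0.000551). For Idi1 it was -0.69 ± 0.30 (0.254, with the block 0.000615), for Fdft1 -0.33 ± 0.08 (0.0851, with the block 0.00273), for Fdps -0.30 ± 0.09 (0.141, with the block 0.00378) and for Sqle -0.31 ± 0.15 (0.299, with the block 0.0212). Cyp51 and Lss passed neither fit, with log2 changes of -0.05 and -0.13.

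Torin 1 in control cells lowered the footprints of Cyp51 by 27.6% and of Sqle by 20.2%. These were 2 of 7 members against 4.33% of 9856 genes, and the median log2 change was -0.32 over the members and 0.01 over all genes. With the replicate block Hmgcs1 and Idi1 joined them, 4 of 7 against 10.6%.

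Cyp51 was at 129, 120.4, 96.7, 126, 123 and 113 footprint CPM with DMSO and at 91.5, 83.7, 72.8, 83.2, 101 and 80.8 with torin 1, so that the highest library with torin 1 lay within the DMSO range and the other 5 below it. Sqle was at 90.7 to 110 CPM with DMSO and at 73.0, 75.9, 80.2, 77.3, 91.1 and 75.7 with torin 1, again with a single library within the DMSO range. The log2 changes were -0.47 ± 0.10 for Cyp51 (adjusted p = 0.00704) and -0.32 ± 0.08 for Sqle (adjusted p = 0.0232).

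The log2 change was -0.38 ± 0.13 for Hmgcs1 (adjusted p = 0.0986, with the block 0.00614) and for Idi1 -0.38 ± 0.16 (0.169, with the block 0.000327). For each of them the torin 1 library lay below the DMSO library of the same number in 6 of 6 pairs. Fdps, Fdft1 and Lss had log2 changes of -0.09 ± 0.07, -0.05 ± 0.09 and -0.07 ± 0.14 (adjusted p = 0.543 to 0.833), and all 3 turned positive with library totals, which moved the median of all genes up by 0.0893. Without control DMSO replicate 5 or 6 or torin 1 replicate 6, Cyp51 was the single call.

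Among the transcripts of control cells, torin 1 lowered those of Sqle and Lss, 2 of 7 members against 7.4% of 9617 genes, with a median log2 change of -0.33 over the members. With the block 5 of 7 were called lower, against 23% of all genes.

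Sqle transcripts were at 127, 136 and 100.7 CPM with DMSO and at 90.9, 93.2 and 83.2 with torin 1, and Lss transcripts at 47.0, 46.03 and 50.5 with DMSO and at 36.7, 38.5 and 42.8 with torin 1. Neither gene's groups overlapped. The log2 changes were -0.46 ± 0.11 for Sqle (adjusted p = 0.0378) and -0.30 ± 0.08 for Lss (adjusted p = 0.0485). Hmgcs1 had -0.44 ± 0.12 (0.0565, with the block 0.000438), Cyp51 -0.34 ± 0.10 (0.0765, with the block 0.000377) and Idi1 -0.33 ± 0.22 (0.383, with the block 0.00152). Fdps and Fdft1 transcripts stayed near their DMSO level, at -0.03 ± 0.06 and 0.04 ± 0.06 (adjusted p = 0.809 and 0.735). Without control DMSO replicate 1 or 2 or torin 1 replicate 1 or 2, no member was called without the block.

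Torin 1 in Ctu1KO cells gave no call among the footprints of the members, against 4.52% of 9855 genes called lower. With edgeR 1 member had an unadjusted p below 0.05, as had 2125 of the 9855 genes, and 1 was called by DESeq2. Hmgcs1 came nearest, at 196, 183, 220, 236 and 204 CPM with DMSO and 175, 154, 174, 151, 186 and 142 with torin 1, where a single torin 1 library reached the DMSO range. Its log2 change was -0.35 ± 0.10 (adjusted p = 0.0552), and it was called without Ctu1KO torin 1 replicate 1 (-0.38, adjusted p = 0.0418), as it was without torin 1 replicate 5 or DMSO replicate 2.

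The other log2 changes were -0.40 ± 0.21 for Idi1, -0.23 ± 0.12 for Fdps, -0.23 ± 0.14 for Fdft1, -0.18 ± 0.11 for Sqle, 0.04 ± 0.14 for Lss and -0.19 ± 0.18 for Cyp51 (adjusted p = 0.273 to 0.912). Cyp51 in torin 1 replicate 1, at 106 CPM, lay above all DMSO libraries, and without it the log2 change was -0.38 ± 0.12 (adjusted p = 0.0589).

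In the transcripts of Ctu1KO cells, torin 1 lowered Hmgcs1, from 178, 176 and 200.3 CPM to 104, 126 and 144, with groups apart and a log2 change of -0.57 ± 0.13 (adjusted p = 0.041). This was 1 of 7 members, against 4.52% of 9619 genes. With the block 4 of 7 were called, against 18.1% of genes, with Idi1 at a log2 change of -0.56 ± 0.33 (0.356, with the block 0.000457), Sqle at -0.37 ± 0.17 (0.231, with the block 0.00206) and Lss at -0.23 ± 0.13 (0.324, with the block 0.0462). Fdps at -0.04, Fdft1 at 0.08 and Cyp51 at -0.09 passed neither fit. Without Ctu1KO DMSO replicate 1, 2 or 3 or torin 1 replicate 1 or 2, and with all replicates as labelled, the call of Hmgcs1 was not made.

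**Figure D3:**
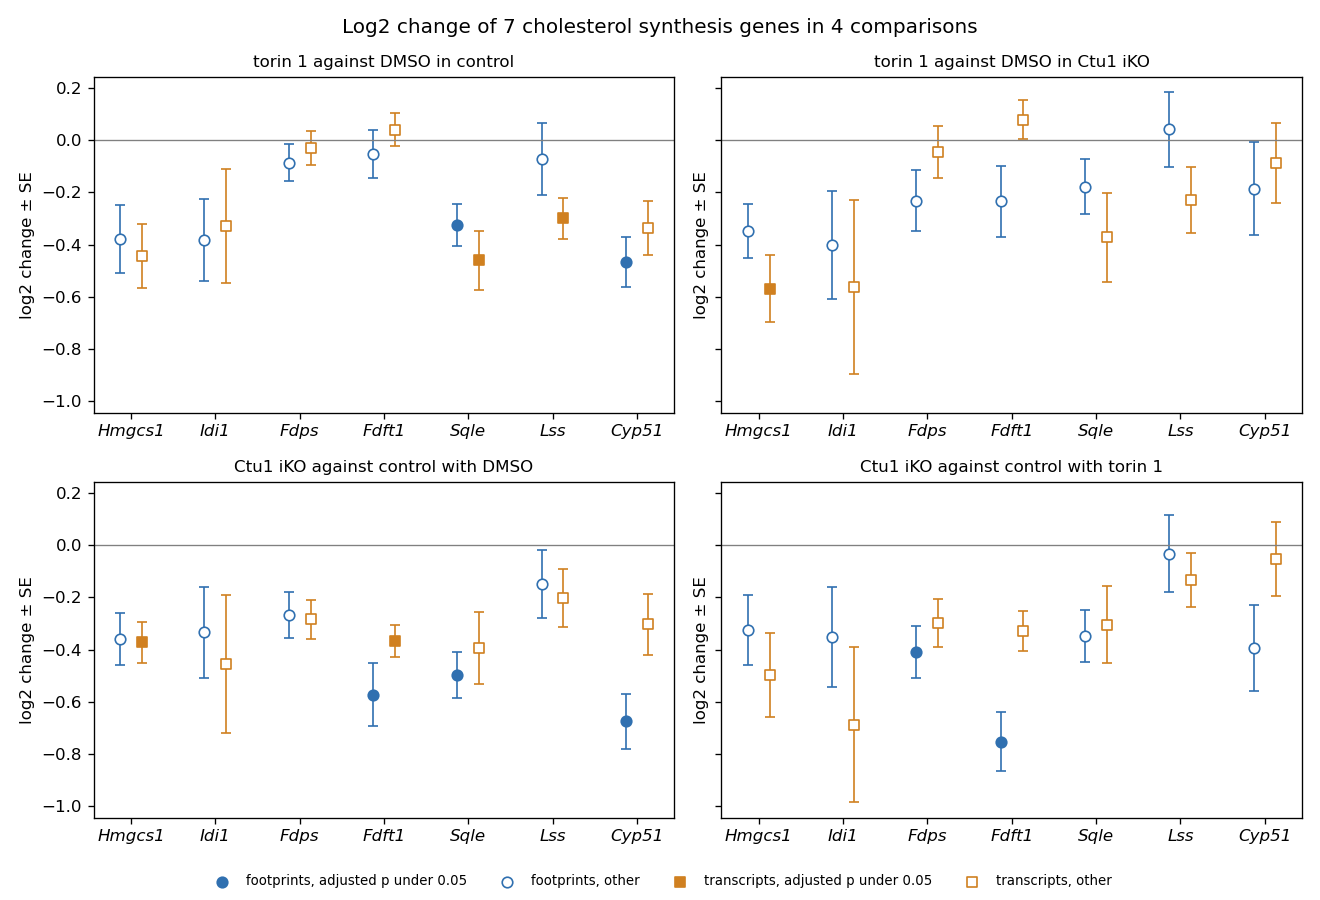
Log2 change ± SE of each member in the 4 comparisons (panels), with circles for footprints and squares for transcripts, filled where the adjusted p was below 0.05. Fdft1 lies at -0.57 and -0.75 for footprints in the Ctu1KO comparisons but at -0.05 for torin 1 in control cells.

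The effect of torin 1 was not shown to differ between the genotypes for any member. The difference of the log2 changes, Ctu1KO minus control, ran in footprints from -0.18 ± 0.16 for Fdft1 to 0.29 ± 0.20 for Cyp51 (adjusted p = 0.9998 for all), against 0.639% of 9857 genes called in either direction. Without Ctu1KO torin 1 replicate 1 they ran from -0.13 ± 0.16 for Fdft1 to 0.17 ± 0.20 for Lss, and that of Cyp51 was 0.10 ± 0.14 (adjusted p = 0.9999 for all). In transcripts the differences ran from -0.22 to 0.26, with 0% of 9616 genes called. edgeR gave no member an unadjusted p below 0.05 in either assay (0 of 7), against 460 of 9857 genes in footprints and 140 of 9616 in transcripts. DESeq2 called 0 of 7, and standard errors of up to 0.272 in footprints leave differences of this size undetectable.

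No member was called for translational efficiency, the footprint change over the transcript change, by edgeR in replicates 1 to 3. The background was 1.18% of genes for torin 1 in control, 1.77% for torin 1 in Ctu1KO, 0% for Ctu1KO with DMSO and 0.114% for Ctu1KO with torin 1. Unadjusted, 1 member had a p below 0.05, in the last of these comparisons, as had 451 of 9644 genes. DESeq2 called 1 member there and 0 in the other 3.

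Fdft1 with torin 1 present had the lowest value, a log2 change of efficiency of -0.47 ± 0.16 (adjusted p = 0.631), and it was the member called by DESeq2 (adjusted p = 0.044). Its ratio of footprint CPM to transcript CPM was 1.11 ± 0.109 in control and 0.805 ± 0.0673 in Ctu1KO cells with torin 1 (SD, n = 3). Cyp51 had the lowest value with DMSO, at -0.37 ± 0.22, with a ratio of 1.25 ± 0.0375 in control and 0.965 ± 0.0379 in Ctu1KO cells. Means of all 7 members were lower with Ctu1 loss in both assays, and an excess in footprints was not detectable at this error for any member by edgeR. That fit does not pair the assays of a culture. With a block for the culture, the lowest adjusted p of a member for Ctu1 loss by edgeR was 0.977 with DMSO and 0.421 with torin 1.

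**Figure D4:**
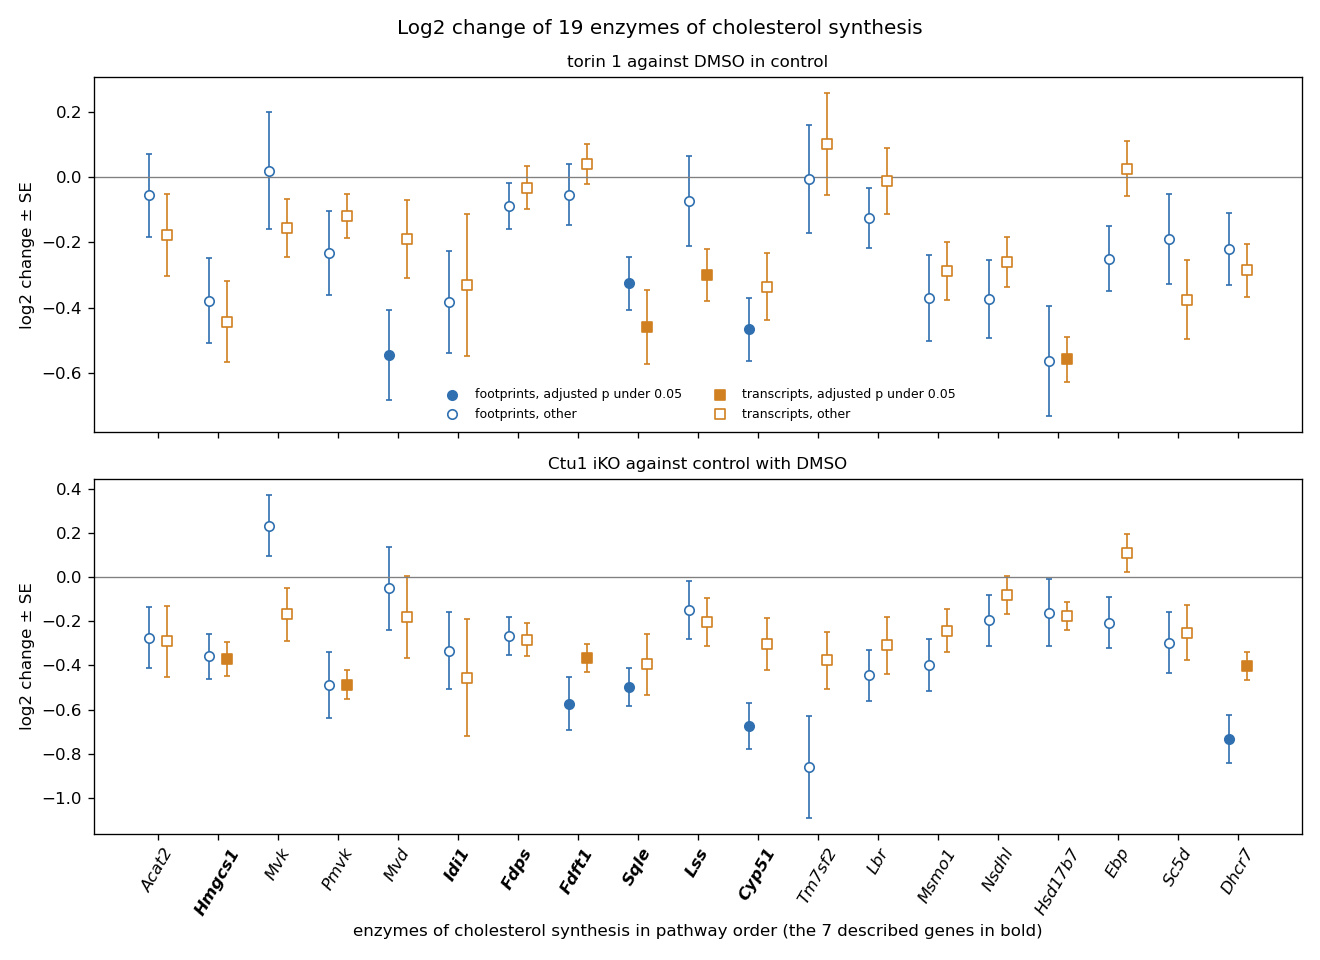
Log2 change ± SE of 19 enzymes of cholesterol synthesis in pathway order, in footprints and transcripts, for torin 1 in control cells and for Ctu1KO against control with DMSO. In footprints 18 of the 19 lie below 0 in both comparisons.

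Of 12 other enzymes of the route, 1 was called lower in footprints with torin 1 in control, 1 with torin 1 in Ctu1KO, 1 with Ctu1 loss and DMSO and 3 with Ctu1 loss and torin 1, and none higher, against the 4.33%, 4.52%, 1.04% and 2.6% of all genes given above. With the block 5 were called with torin 1 in control (10.6% of all genes) and 7 with Ctu1 loss and torin 1 (7.35%). Over all 19 enzymes the median log2 changes of footprints were -0.23, -0.23, -0.33 and -0.38 in this order. Torin 1 lowered Mvd, the mevalonate diphosphate decarboxylase, by 0.55 and 0.70 on the log2 scale (adjusted p = 0.0239 in control and 0.0343 in Ctu1KO).

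Ctu1 loss lowered Dhcr7, which makes cholesterol from its direct precursor, by 0.73 with DMSO (adjusted p = 0.004) and 0.60 with torin 1 (adjusted p = 0.0463), and Tm7sf2, a sterol reductase, by 1.07 with torin 1 (adjusted p = 0.0264). In transcripts edgeR called 1, 1, 2 and 0 of the 12 lower in the same order, namely Hsd17b7 with torin 1 in both genotypes and Dhcr7 and Pmvk with Ctu1 loss and DMSO. With Ctu1 loss and torin 1, 3 of the 12 had an unadjusted p below 0.05, as had 1932 of 9650 genes, and DESeq2 called 1. With the block 8, 5, 8 and 6 of the 12 were called lower, against 23%, 18.1%, 13.6% and 15.5% of all genes.

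Of 10 genes of sterol sensing, footprints of 1 were called lower with torin 1 in control cells (4.33% of all genes) and none in the other comparisons of groups by edgeR. In those, 2 to 5 of the 10 had an unadjusted p below 0.05 and DESeq2 called at most 1. Such a p was found for 2125 of 9855 genes with torin 1 in Ctu1KO. With Ctu1 loss it was found for 1863 of 10397 genes with DMSO and 1863 of 9913 with torin 1. With the block 1 was called lower and 2 higher for torin 1 in control, against 10.6% and 9.88% of all genes, and 0 in either direction for Ctu1 loss with torin 1, against 7.35% lower and 7.02% higher. The gene called without it was Rnf145, a ubiquitin ligase tied to sterol sensing, with log2 changes of -0.75 ± 0.14 in footprints (adjusted p = 0.00259) and -0.77 ± 0.07 in transcripts (adjusted p = 0.00124). In transcripts of Ctu1KO cells torin 1 lowered 2 of the 10 (4.52% of all genes), Rnf145 at -0.82 (adjusted p = 0.0256) and Insig1, which holds SREBP in the endoplasmic reticulum, at -0.31 (adjusted p = 0.0489), and raised Srebf1, which encodes SREBP-1, by 0.47 (adjusted p = 0.0257), the 1 gene called higher (3.73% of all genes). For Ctu1 loss edgeR called 0 of the 10 transcripts with either treatment, where DESeq2 called 1 each. An unadjusted p below 0.05 was found for 3 with DMSO (2470 of 10119 genes) and 1 with torin 1 (1932 of 9650 genes). With the block 3, 2, 4 and 4 of the 10 transcripts were called lower in the order used above, against 23%, 18.1%, 13.6% and 15.5% of all genes, and 1, 1, 0 and 1 higher, against 20.7%, 17.1%, 14.3% and 17.3%.

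Of 17 genes of cholesterol uptake, storage and export 14 were listed. In footprints 0 were called higher and 1 lower with torin 1 in control, 1 and 1 with torin 1 in Ctu1KO, 0 and 2 with Ctu1 loss and DMSO, and 2 and 1 with Ctu1 loss and torin 1. Of all genes 2.91%, 3.48%, 1.63% and 2.23% were called higher and 4.33%, 4.52%, 1.04% and 2.6% lower in this order. With the block the counts were 0 and 1 for torin 1 in control and 3 and 2 for Ctu1 loss with torin 1 (9.88% and 10.6%, and 7.02% and 7.35% of all genes). Torin 1 lowered the footprints of Tmem97, a sterol-regulated membrane protein, with log2 changes of -0.55 ± 0.11 in control (adjusted p = 0.00483) and -0.74 ± 0.14 in Ctu1KO cells (adjusted p = 0.00447). Ctu1 loss lowered Lrp8, a lipoprotein receptor, by 0.60 with DMSO (adjusted p = 0.0429) and 0.70 with torin 1 (adjusted p = 0.0137). Mylip, a ubiquitin ligase that degrades lipoprotein receptors, rose by 1.18 with Ctu1 loss and torin 1 (adjusted p = 0.017) and by 1.23 with torin 1 in Ctu1KO cells (adjusted p = 0.0189). Vldlr, another lipoprotein receptor, rose by 1.08 with Ctu1 loss and torin 1 (adjusted p = 0.0481). In transcripts 0, 1, 1 and 1 of the 14 were called higher and 2, 2, 2 and 0 lower, against 5.69%, 3.73%, 3.32% and 0.953% of all genes higher and 7.4%, 4.52%, 1.8% and 0.352% lower. With the block 5, 7, 4 and 6 were called higher and 3, 3, 4 and 4 lower, against 20.7%, 17.1%, 14.3% and 17.3% of all genes higher and 23%, 18.1%, 13.6% and 15.5% lower.

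Of 9 genes of other isoprenoid branches none was called in footprints in any comparison of groups by edgeR, and DESeq2 called at most 1. At most 1 of the 9 had an unadjusted p below 0.05, against 1863 to 2125 of all genes in these comparisons. In transcripts 1 was called, Pggt1b with torin 1 in control (log2 change of -0.29, adjusted p = 0.0201), where 7.4% of all genes were called lower. With the block 2, 4, 0 and 1 of the 9 transcripts were called lower in the order used above and none higher, against 23%, 18.1%, 13.6% and 15.5% of all genes lower. Of 12 genes of fatty acid synthesis, 2, 1, 2 and 0 were called lower in footprints and none higher, against 4.33%, 4.52%, 1.04% and 2.6% of all genes in the order used above. For Ctu1 loss with torin 1, 3 of the 12 had an unadjusted p below 0.05, as had 1863 of 9913 genes, and DESeq2 called 2. With the block 6 were called lower there (7.35% of all genes), as were 7 with torin 1 in control (10.6%). In transcripts 2, 0, 2 and 0 of the 12 were called lower and none higher, and with the block 5, 3, 6 and 4 lower and 1, 1, 0 and 1 higher, against the same shares of all genes as for the 14 uptake, storage and export genes. Fasn, the fatty acid synthase, had log2 changes with torin 1 of -0.88 ± 0.17 in control (adjusted p = 0.00367) and -0.85 ± 0.10 in Ctu1KO cells (adjusted p = 7.07e-05), and Ctu1 loss with DMSO lowered Elovl6, a fatty acid elongase, by 0.70 (adjusted p = 0.00649).

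Across the 23 footprint libraries, which share the groups, the Pearson correlation of log2 CPM between pairs of members ran from -0.03 to 0.94 with a median of 0.66 over 21 pairs. With the mean of the other members it was 0.879 for Sqle, 0.849 for Fdft1, 0.846 for Hmgcs1, 0.789 for Fdps, 0.773 for Idi1 and 0.683 for Cyp51, and Lss stood apart at 0.299. The genes outside the lists whose footprints were most like the mean of the members were Pa2g4 (r = 0.917), Ipo5 (0.916), Rbm26 (0.91), Hspd1 (0.906) and Pcbp2 (0.901). In the 12 transcript libraries the same correlation was 0.812 for Pa2g4, 0.436 for Ipo5, 0.894 for Rbm26, 0.582 for Hspd1 and -0.938 for Pcbp2, so that likeness in footprints did not carry over to transcripts for each of them.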

How the data were processed

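The authors deposited raw counts per gene for each library, and the counts were used as deposited. Per the labels, the submitters' processing notes name cutadapt 3.4, UMI-tools 1.1.1, STAR 2.5.3a, GRCm38 and mm10, while the study's methods name a human build for the footprint alignment; all symbols here are of mouse. The RNA kit marks strand. All RNA counts were even numbers, and 48.7% of the footprint counts were odd. Tables with DMSO held 10420 entries and those with torin 1 9936, and 11 symbols on more than 1 entry were left out.

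The quasi-likelihood test of edgeR 4.0.16 (R 4.3.3) was run with TMM factors on every gene whose mean count reached 10, p-values were adjusted by Benjamini-Hochberg over that whole table, and a call is an adjusted p under 0.05. Standard errors are the absolute log2 change over the square root of F. Translational efficiency was the interaction of assay and group in replicates 1 to 3. CPM values were scaled by TMM over the 9857 symbols in both kinds of table. DESeq2 1.42.0, library totals, no filter, a replicate block, 1 fit over all groups, subsets of replicates and leaving out each library were the alternatives. The scripts were tested on simulated data with 200 changed genes.

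The 7 members and all gene lists were chosen with earlier results of these data known. Named besides the members were Ctu1, up to 2 genes per list, comparison and direction with the largest called change, and the 5 genes most like the members' mean (log2 CPM with a prior count of 1, mean of at least 100 counts). Some genes of the lists are not reported here. Same-numbered libraries deviated together in all pairs of the 4 transcript comparisons (r of 0.196 to 0.645), of torin 1 in control footprints (0.397 to 0.641) and of Ctu1KO against control footprints with torin 1 (0.315 to 0.52), and these were taken as paired from the data. The study's methods give 2 independent repeats of the profiling, a day apart, while its legends give 5 or 6 independent experiments, as many as the cultures labelled per group. For RNA sequencing they give 2 independent experiments, while 5 or 6 libraries per group are labelled and 3 were tested. The labels do not say which cultures were grown independently, so p-values measure the spread between these libraries, which may be technical. Replicates differed by more than counting noise (chi-square over degrees of freedom of at least 21.7).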

Additional observations from a re-analysis of the deposited data

Results flagged for a closer look

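In 28 groups of 5 or 6 footprint libraries, 1 per member and condition, 2 held a library far from the others by Dixon's criterion, which chance meets in about 1 in 20 groups. Cyp51 was at 106 CPM in Ctu1KO with torin 1, replicate 1, the library with the fewest counts, where the nearest of the other 5 was at 66.5. Hmgcs1 was at 329 CPM in control with DMSO, replicate 5, where the nearest of the other 5 was at 266.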

How the results depend on the processing

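Calls among the 7 members depended on the fit more than their directions did, and the causes were not tested. For the block, shares of all genes are given above where libraries were taken as paired. The counts of the other alternatives stand without such a share and do not show whether calls rose over all genes as well. For torin 1 in control, footprint calls went from 2 to 1 with library totals, 4 with the replicate block and 0 with replicates 1 and 2, 3 to 6 or 1 to 3 alone (1 to 3 when leaving out a library). For torin 1 in Ctu1KO they went from 0 to 1 with DESeq2 and with replicates 3 and higher (0 to 1). For Ctu1KO with DMSO they went from 3 to 0 with replicates 1 and 2 or 1 to 3 alone (2 to 3), and the block, whose numbers are not paired here, gave 3. There 2 of 5 Ctu1KO libraries deviated most like the control library of their own number, and replicates 3, 4 and 5 most like control 4, 5 and 6, and for torin 1 in Ctu1KO 3 of 5 did, replicates 4 and 5 with torin 1 being most like 3 and 4 with DMSO. This is a hint from the data, not the design, and no other pairing was fitted. For Ctu1KO with torin 1 they went from 2 to 1 with library totals, 5 with the block, 4 with replicates 3 and higher and 0 with replicates 1 and 2 or 1 to 3 alone (1 to 4). Transcript calls for torin 1 in control went from 2 to 4 with DESeq2, 1 without the filter, 5 with the block, 0 with 1 fit over 4 groups and 5 with replicates 1 and 2 (0 to 2). For torin 1 in Ctu1KO they went from 1 to 4 with the block and 0 with all replicates (0 to 1). For Ctu1KO with DMSO they went from 2 to 4 with DESeq2 and 7 with the block, all replicates or replicates 1 and 2 (0 to 3), and for Ctu1KO with torin 1 from 0 to 3 with DESeq2, 5 with the block and 3 with 1 fit over 4 groups (0 to 0). Efficiency calls for Ctu1KO with torin 1 went from 0 to 1 with DESeq2 and with all replicates. Library totals moved the median of all genes by 0.13 and 0.17 for the efficiency change with torin 1 in control and Ctu1KO. Log2 changes that turned sign were small. With library totals, footprints with torin 1 in control were at 0.035 for Fdft1, 0.0014 for Fdps and 0.015 for Lss, and Lss for Ctu1KO with torin 1 at 0.014. With replicates 1 and 2 and with 1 to 3, Fdft1 for torin 1 in control was at 0.097 and 0.0029, and Lss for Ctu1KO with torin 1 at 0.10 and 0.041. For torin 1 in Ctu1KO, Cyp51 was at 0.079 with replicates 1 and 2, and Lss at -0.074 with 1 to 3 and -0.013 with 3 and higher. With all replicates, transcripts with torin 1 were at -0.084 for Fdft1 in control, and at 0.0032 for Cyp51 and 0.13 for Fdps in Ctu1KO. Leaving out a library, footprints of Lss ranged from -0.15 to 0.0052 for torin 1 in control, -0.021 to 0.12 for torin 1 in Ctu1KO and -0.11 to 0.046 for Ctu1KO with torin 1. Transcripts ranged from -0.060 to 0.010 for Fdps with torin 1 in control, -0.085 to 0.031 for Fdps and -0.26 to 0.022 for Cyp51 with torin 1 in Ctu1KO, and -0.22 to 0.030 for Cyp51 in Ctu1KO with torin 1.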
